A study of Mus musculus with 2 samples.

Results

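Hand1, Hand2 and Hand2os1 are described here across the cranial neural crest mesenchyme of control and Tfap2a/Tfap2b mutant mouse embryos. The 3 genes were taken by their symbols from the 32285 genes counted in both libraries, with no use of their values. Heads of E11.5 mouse embryos (E for embryonic day) were cut just below the second pharyngeal arch and the otic vesicle, and were dissociated. Cells that had recombined under Wnt1-CRE were sorted by their GFP and profiled by 3′ single-cell RNA-seq. Control embryos were wt/flox at Tfap2a and also wt/flox at Tfap2b, and mutant embryos were flox/flox at both genes. All embryos were r26 mTmG/mTmG, a reporter that turns on GFP after recombination, and Wnt1CRE+. Wnt1-CRE also acts in the dorsal neural tube, and brain cells were among those sorted. CRE, the reporter and at least 1 floxed copy of both genes were therefore common to both groups, and the control is heterozygous after recombination rather than wild type. Each library pooled 2 embryos, so there was 1 library per genotype, no replicate and no test of any difference.

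HAND1 and HAND2 are basic helix-loop-helix (bHLH) transcription factors that pair with E proteins or TWIST1 and bind E-box sequences. In the mandibular arch, endothelin-1 from the epithelium acts through its receptor EDNRA on neural crest cells, in which Dlx5 and Dlx6 and then Hand2 are switched on ventrally, while Hand1 marks the most distal tip and also follows BMP signals. Hand2os1 (also known as upperhand) is a long non-coding RNA read from the opposite strand of the Hand2 locus. Both Hand genes are also used by the heart and the sympathetic nervous system.

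On GRCm38 (mm10), Hand1 (ENSMUSG00000037335) lies on chromosome 11 from 57828705 to 57832818 on the minus strand. Hand2 (ENSMUSG00000038193) lies on chromosome 8 from 57320983 to 57324633 on the plus strand. Hand2os1 (ENSMUSG00000100510), annotated as a processed transcript with no coding sequence, lies on the minus strand of chromosome 8 from 57281117 to 57324233 and so spans most of Hand2. Exons of the pair overlap over 246 bases at the start of Hand2 and over 215 bases within its 3′ UTR. The strand setting of the count is not given in the sources used here, so UMIs of Hand2 and Hand2os1 from the overlapping bases could have been assigned to either gene. The values of both are uncertain to that extent.

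The stretch in front of Hand2 is shown because Hand2 starts beside it and, in RefSeq, Hand2os1 starts within it. In the GENCODE annotation used above, the most upstream start of Hand2os1 is instead at 57324233, in the 3′ UTR of Hand2. It covers chr8:57320733-57320982 on the plus strand of GRCm38.p6 (RefSeq), ends 1 base before the Hand2 start, and holds the RefSeq start of Hand2os1 at 57320859, with 123 bases between the starts. Capitals mark a TATA-like match, TATATTAA, 29 bases before the Hand2 start.
Hand2 upstream stretch: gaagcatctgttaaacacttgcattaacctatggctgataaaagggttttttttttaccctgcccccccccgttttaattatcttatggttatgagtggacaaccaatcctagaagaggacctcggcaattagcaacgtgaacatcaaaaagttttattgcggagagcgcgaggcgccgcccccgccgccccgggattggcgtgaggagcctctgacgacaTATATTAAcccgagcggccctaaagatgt
Searched on both strands, TATATTAA was found in 0.694% of 32851 RefSeq windows of 250 bases upstream of gene starts. The E-box letters CANNTG matched 2 times in the Hand2 stretch and are found in 66.2% of the windows. The TFAP2 letters GCCNNNGGC, present in 13.7% of the windows, are not in this stretch. These are matches of letters only.

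After the cell filter, 5625 control and 5587 mutant cells remained, with medians of 13478 and 12234 UMIs (unique molecular identifiers, the counted transcripts) per cell. Mesenchyme made up 3759 control and 2817 mutant cells, with similar medians of 14568 and 14473 UMIs, and its 6 markers (Prrx1, Prrx2, Twist1, Fli1, Pdgfra and Col1a1) were all higher there than in other cells. The libraries shared 6 cell barcodes. Xist was detected in 98.8% of the control cells against 0.107% of the mutant cells, and Y-linked genes in 0.0356% against 82.0%, so genotype and embryo sex cannot be told apart in any value below. Tfap2a was at 19.5 CPM (UMIs per 1000000 UMIs) in control and 13.3 CPM in mutant mesenchyme (log2 ratio −0.55) and Tfap2b at 56.6 and 48.0 CPM (−0.24). In the mandibular-like cells Tfap2a had 22 and 14 UMIs (2.01 and 2.26 CPM) and Tfap2b 50 and 52 (4.56 and 8.41 CPM, log2 ratio 0.88, 0.30 to 1.47). These 3′ counts need not cover the floxed exons and so do not check the deletion. The heart marker list (Nkx2-5, Tnnt2, Myh6, Myl7, Tbx5, Tbx20, Nppa), which bears on another known source of Hand transcripts, summed to 0.994 and 1.05 CPM in control and mutant mesenchyme, with Tbx5 and Nppa at 0 in the control and Nkx2-5 at 0 in the mutant. Lists of skeletal muscle (6.91 and 9.34 CPM), epithelium (8.07 and 9.25), endothelium (3.41 and 4.07) and blood genes (6.60 and 1.34) were also low, and their part in the results was not tested.

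Levels below, in CPM, are likewise UMIs of a gene per 1000000 UMIs summed over the cells of a group. A log2 ratio is mutant over control. Brackets hold 95% intervals, exact Poisson for levels, exact conditional binomial for ratios and Clopper-Pearson for shares, and all of them cover counting error only, not the spread between cells or embryos. Mesenchyme fell into 5 groups when clustered without the 3 genes. A group is called mandibular-like, maxillary-like, second arch-like or periocular-like by its markers. The mandibular-like group rests on 4 of 6 markers (mean log2 ratio against other mesenchyme 0.57), and the same list scored higher in the second arch-like group (1.20), whose own markers scored 2.49. Hand2os1, Hand1 and Hand2 nevertheless led the mandibular-like group by fold although none of them was used to form it.

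All 3 genes were concentrated in the mandibular-like cells. This group held 767 control and 385 mutant cells and gave 94.0% of control and 85.4% of mutant Hand1 UMIs of the mesenchyme. It also gave 84.5% and 78.5% of the Hand2 UMIs, and 87.9% and 82.5% of the Hand2os1 UMIs. Hand1 was the most restricted member by this measure in both libraries. The group may also hold second arch cells. Without thinning, 65 control and 59 mutant cells of the group had a UMI of Hoxa2, a second arch marker, and 59 and 47 of them had Hand2. Over all mesenchyme 85 control and 65 mutant cells had both, so most Hand2 cells with this marker lay in the mandibular-like group.

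Hand2, the ventral arch regulator, stood at 188 CPM (180 to 196) in control mandibular-like cells. In the control it was at 13.3 CPM (11.7 to 15.0) in maxillary-like, 8.11 CPM (6.40 to 10.1) in second arch-like and 1.79 CPM (1.22 to 2.54) in periocular-like cells, and none of these 4 intervals overlapped its neighbour in the order. The mutant had the same order, at 168 (158 to 178), 11.6 (9.96 to 13.5), 4.68 (3.42 to 6.27) and 0.649 CPM (0.261 to 1.34). The lowest level lay below that of the brain progenitor-like cells, which should not use the gene and stood at 3.16 CPM in the control and 0.699 CPM in the mutant, so the periocular-like value is at background.

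Hand2os1 followed the order of Hand2, with control levels of 241 CPM (232 to 250), 14.4 CPM (12.7 to 16.1), 4.95 CPM (3.64 to 6.58) and 1.79 CPM (1.22 to 2.54) in the same groups. Hand1, the distal tip gene, stood at 52.6 CPM (48.4 to 57.1) in control mandibular-like cells. In the control it was at 0.878 CPM in maxillary-like, 1.05 CPM in second arch-like and 0.520 CPM in periocular-like cells, and the intervals of these 3 levels overlapped. All 3 were below the 1.64 CPM (0.875 to 2.81) of the brain progenitor-like cells, so Hand1 was above background only in the mandibular-like group of the control.

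**Figure D1:**
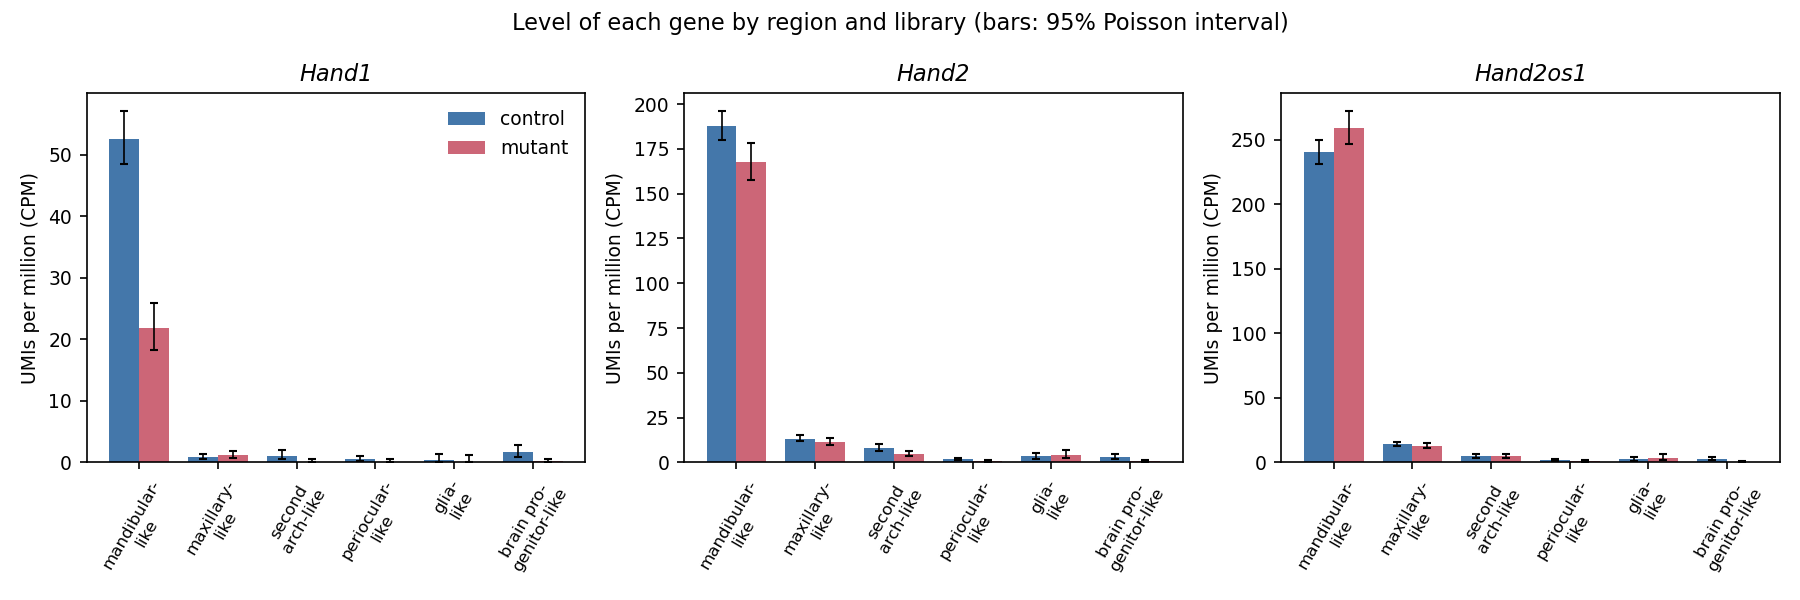
Level of each gene (CPM, linear axis from 0, separate scale per gene) in 4 mesenchyme groups, glia-like cells and brain progenitor-like cells, control in blue and mutant in red, with 95% Poisson intervals as bars. The mandibular-like bars stand far above the rest in each panel, and within them Hand1 drops from 52.6 to 21.8 CPM while Hand2os1 does not drop.

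The 3 genes were lower in the mutant mesenchyme by unequal amounts. Hand1 went from 614 UMIs in the control to 158 in the mutant (10.5 against 3.59 CPM), 2.93-fold lower (log2 ratio −1.55, −1.81 to −1.30). Hand2 went from 2437 to 1319 UMIs (41.8 against 30.0 CPM), a log2 ratio of −0.48 (−0.58 to −0.38), and Hand2os1 from 3001 to 1941 UMIs (51.4 against 44.1 CPM), a log2 ratio of −0.22 (−0.30 to −0.14). None of the 3 intervals overlapped another. Only Hand1 was 1.5-fold or more lower, as were 0.858% of the 11657 mesenchyme genes with at least 100 UMIs in 1 or both libraries, and from the lowest ratio up it was gene 10 of that set, Hand2 gene 155 and Hand2os1 gene 565. An interval wholly below 0, as all 3 had, was found for 14% of these genes.

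Within the mandibular-like cells the difference was narrower for Hand2, and Hand2os1 was not lower. Hand1 went from 577 UMIs (52.6 CPM) to 135 UMIs (21.8 CPM), 2.41-fold lower (log2 ratio −1.27, −1.55 to −0.996). Hand2 went from 2060 UMIs (188 CPM) to 1036 UMIs (168 CPM), a log2 ratio of −0.16 (−0.27 to −0.06). Hand2os1, with 2639 UMIs in the control (241 CPM) and 1602 in the mutant (259 CPM), was slightly higher (log2 ratio 0.11, 0.02 to 0.20). Of the 8576 genes with at least 100 UMIs here, 1.31% were 1.5-fold or more lower, Hand1 among them as gene 12 from the lowest, and 0.525% were 1.5-fold or more higher. With cells thinned to 5000 UMIs the intervals of Hand2 (−0.36 to 0.04) and Hand2os1 (−0.06 to 0.25) included 0. In the unthinned counts, intervals wholly below 0, as for Hand1 and Hand2, were found for 10.3% of these genes and wholly above 0, as for Hand2os1, for 7.86%.

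The same contrast can be put as a ratio between members, in which the library total cancels. In mandibular-like cells there were 0.280 Hand1 UMIs per Hand2 UMI in the control and 0.130 in the mutant, a log2 ratio of −1.10 (−1.41 to −0.81). There were 1.28 and 1.55 Hand2os1 UMIs per Hand2 UMI, a log2 ratio of 0.27 (0.13 to 0.41). Hand2os1 thus stood higher relative to Hand2 in the mutant, and this log2 ratio was much the same in the mandibular-like cells assigned to cluster 0, described below, and in the others (0.28 and 0.27), although the interval of the small cluster 0 group included 0 (−0.15 to 0.71).

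Outside the mandibular-like group the counts were small. In maxillary-like cells (1125 control, 862 mutant) Hand2 had 258 and 176 UMIs and Hand2os1 278 and 193, with log2 ratios of −0.20 (−0.48 to 0.08) and −0.17 (−0.45 to 0.10), so no difference was detectable at this depth. In second arch-like cells (678 control, 702 mutant) Hand2 had 77 and 45 UMIs, a log2 ratio of −0.79 (−1.36 to −0.24), whereas Hand2os1 had 47 and 49 UMIs, a ratio of 0.04 (−0.56 to 0.65). Per Hand2 UMI, Hand2os1 went there from 0.610 to 1.09, a log2 ratio of 0.84 with an interval that reached 0. Hand1 had 10 and 1 UMIs in second arch-like cells. In maxillary-like cells it had 17 and 18 UMIs from 4 cells in each library, and the mutant level of 1.19 CPM (0.704 to 1.88) was above the 0.155 CPM of mutant brain progenitor-like cells.

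The mandibular-like group took 20.4% of the mesenchyme cells in the control library against 13.7% in the mutant library. By UMIs it held 10968313 of 58345661 in the control and 6181926 of 43994346 in the mutant. Part of the difference over all mesenchyme went with this make-up of the libraries. The shares themselves are not compared, since genes used to form the groups differed between the libraries too. With the 5 groups held at their control shares of UMIs, the mutant level would be 4.57 CPM for Hand1, against 10.5 measured in the control and 3.59 in the mutant. The same sum gave 36.8 CPM for Hand2, against 41.8 and 30.0, and 54.9 CPM for Hand2os1, against 51.4 and 44.1. The log2 ratios at fixed shares were −1.20, −0.18 and 0.09. With 16 finer clusters held fixed the levels were 3.72, 35.1 and 51.2 CPM, and the Hand2os1 ratio was −0.0077. Fewer cells of a type and less RNA per cell were thus separated only as far as the clusters follow cell types.

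Within the mandibular-like group the members differed in where they were low. Finer clustering gave 16 mesenchyme clusters, and 4 of them held most mandibular-like cells. These were cluster 6 (led by Syt6, Gpr50, Gm34030 and Npr3), cluster 9 (Lratd1, Pcp4l1, Bnc1 and Hmx1), cluster 13 (Rtl3, Cavin2, Hand1 and Syt6) and a small group of 52 control and 38 mutant cells that were assigned to cluster 0. By the region markers, clusters 6, 9 and 13 were left unnamed, with mean log2 ratios of the mandibular list of −0.07, −0.32 and 0.28. Cluster 0 as a whole was named frontonasal (0.27 for that list, −1.62 for the mandibular list). The small group assigned to cluster 0 was picked out after its values were seen. Against other mandibular-like cells its leading genes included Msx2, Msx1, Dkk1 and Hand1, and none of its cells was called a doublet.

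Hand1 was highest in the cluster 0 cells, at 272 CPM (236 to 312) in the control and 65.8 CPM (48.0 to 88.0) in the mutant. Its 206 and 45 UMIs gave a 4.14-fold lower level (log2 ratio −2.05, −2.55 to −1.58). In cluster 13, with 186 and 29 UMIs, the level went from 100.2 to 22.5 CPM (log2 ratio −2.16, −2.77 to −1.59), and in cluster 9, with 66 and 4 UMIs, from 14.7 to 2.03 CPM (−2.86, −4.78 to −1.44). Cluster 6 was the exception, with 117 and 58 UMIs, 37.7 and 28.8 CPM and a log2 ratio of −0.39 whose interval included 0 (−0.87 to 0.08). The interval of cluster 6 did not overlap those of the other 3. The mutant UMIs came from few cells, 12 in the cluster 0 group, 9 in cluster 13, 4 in cluster 9 and 18 in cluster 6. These intervals therefore understate the uncertainty. In the mutant the order of levels in clusters 13 and 6 was the reverse of the control, with intervals that overlapped (15.1 to 32.3 and 21.9 to 37.3 CPM).

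Hand2 varied less between these clusters. Its control levels were 278 CPM (241 to 318) in the cluster 0 cells, 254 CPM in cluster 13, 173 CPM in cluster 9 and 165 CPM in cluster 6, and intervals overlapped between the first pair and between the last pair. The mutant levels in the same order were 181, 202, 161 and 150 CPM. Log2 ratios were −0.61 (−0.95 to −0.29), −0.33 (−0.55 to −0.11), −0.11 (−0.30 to 0.08) and −0.14 (−0.35 to 0.07), so Hand2 was lower in the cells with the most Hand1 and not detectably so in clusters 9 and 6.

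Hand2os1 was lower only in the cluster 0 cells among these 4, from 354 to 281 CPM (log2 ratio −0.34, −0.61 to −0.06). It was at 342 and 330 CPM in cluster 13 (−0.05, −0.23 to 0.13), at 199 and 207 CPM in cluster 9 (0.06, −0.12 to 0.23) and at 240 and 270 CPM in cluster 6 (0.17, 0.01 to 0.33). Without the cluster 0 cells, the mandibular-like log2 ratios were −1.15 for Hand1, −0.13 (−0.24 to −0.01) for Hand2 and 0.14 (0.05 to 0.24) for Hand2os1, so the picture over the whole group did not rest on them.

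**Figure D2:**
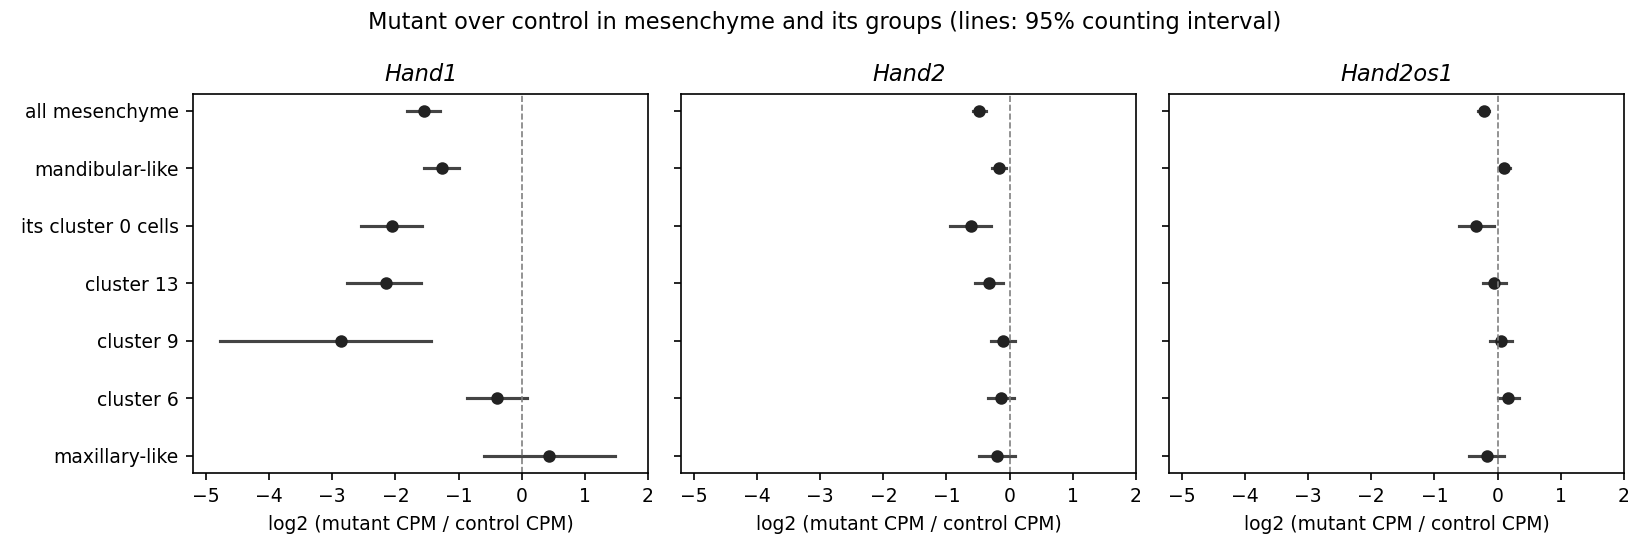
Log2 ratio of mutant over control for each gene in all mesenchyme, the mandibular-like group, its 4 finer clusters and the maxillary-like group, with 95% counting intervals as lines and 0 dashed. Hand1 lies between −1.27 and −2.86 except in cluster 6 and in maxillary-like cells, where its line crosses 0, and Hand2os1 lies close to 0 in most groups.

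Other genes of the cluster 0 cells, looked at after the values were seen, were also lower in the mutant. Msx2, a BMP-responsive homeobox gene, went from 234 to 120 CPM (log2 ratio −0.96, −1.36 to −0.58) and Gata3 from 82.0 to 35.1 CPM (−1.22, −1.97 to −0.52). The Hand1 log2 ratio of these cells, −2.05, was below both, with an interval that overlapped that of Gata3.

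Cluster 4, a maxillary-like cluster led by AI314278 and Lhx6, also had lower levels of the Hand2 pair, but its UMIs came mostly from a few cells that the coarse clustering put in the mandibular-like group. Over the whole cluster Hand2 went from 127 to 51 UMIs (23.1 and 13.4 CPM, log2 ratio −0.79, −1.29 to −0.31) and Hand2os1 from 135 to 48 UMIs (24.5 and 12.6 CPM, −0.96, −1.47 to −0.48). The 27 control and 9 mutant mandibular-like cells in it held 90 and 36 of the Hand2 UMIs, at 201 and 202 CPM (log2 ratio 0.0041, −0.60 to 0.58), and 103 and 37 of the Hand2os1 UMIs (−0.15, −0.73 to 0.40). In its other cells (271 and 200), split off after values were seen, Hand2 had 37 and 15 UMIs (−0.83, −1.80 to 0.07) and Hand2os1 32 and 11 UMIs (−1.06, −2.20 to −0.04). In cluster 1, a second arch-like cluster with Dlx3 and Hoxa2 among its leading genes, Hand2 had 72 and 37 UMIs (−0.57, −1.18 to 0.02) and Hand2os1 33 and 40 UMIs (0.67, −0.03 to 1.38). The cluster 0 cells that belonged to the maxillary-like group (349 and 322) had Hand2 at 28.9 and 24.4 CPM and Hand1 at 3.15 and 2.44 CPM, with intervals of the ratios that included 0. Hand2 had 51 and 35 UMIs in cluster 2 (−0.16, −0.83 to 0.49), which Osr2 led, and 14 and 3 UMIs in cluster 11, which Shisa3 led. In 7 further clusters, those numbered 3, 5, 7, 8, 10, 12 and 14, no member exceeded 7.62 CPM in either library.

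Shares of cells with a UMI depend on depth, so cells were thinned to 5000 UMIs each, which left out 3 control and 3 mutant mandibular-like cells. A Hand1 UMI was then present in 10.9% (8.75 to 13.3) of the control mandibular-like cells and in 6.28% (4.07 to 9.20) of the mutant ones. Hand2 was found in 50.1% and 48.7%, and Hand2os1 in 59.0% and 58.4%, with intervals that overlapped. Without thinning, at medians of 13358 and 15189 UMIs per cell, the shares were 16.7% and 10.9% for Hand1, 76.8% and 76.1% for Hand2 and 78.5% and 80.0% for Hand2os1. The unthinned background in brain progenitor-like cells, at medians of 11682 and 11356 UMIs, was 0.319% and 0.0950% for Hand1, 1.28% and 0.570% for Hand2 and 1.44% and 0.380% for Hand2os1. The equal-depth shares of Hand2 and Hand2os1 thus differed by less than their counting error, and that of Hand1 was lower in the mutant with intervals that overlapped slightly.

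The share of cells with Hand1 separated the cluster 0 cells most. At equal depth a Hand1 UMI was present in 55.8% (41.3 to 69.5) of that group in the control and in 13.2% (4.41 to 28.1) in the mutant. In cluster 13 the shares were 16.0% (10.1 to 23.6) and 8.11% (3.03 to 16.8), in cluster 9 4.09% and 1.89%, and in cluster 6 8.65% and 7.38%, with intervals that overlapped in each pair. Hand2os1 was present in 82.7% (69.7 to 91.8) of the control and in 63.2% (46.0 to 78.2) of the mutant cluster 0 cells.

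**Figure D3:**
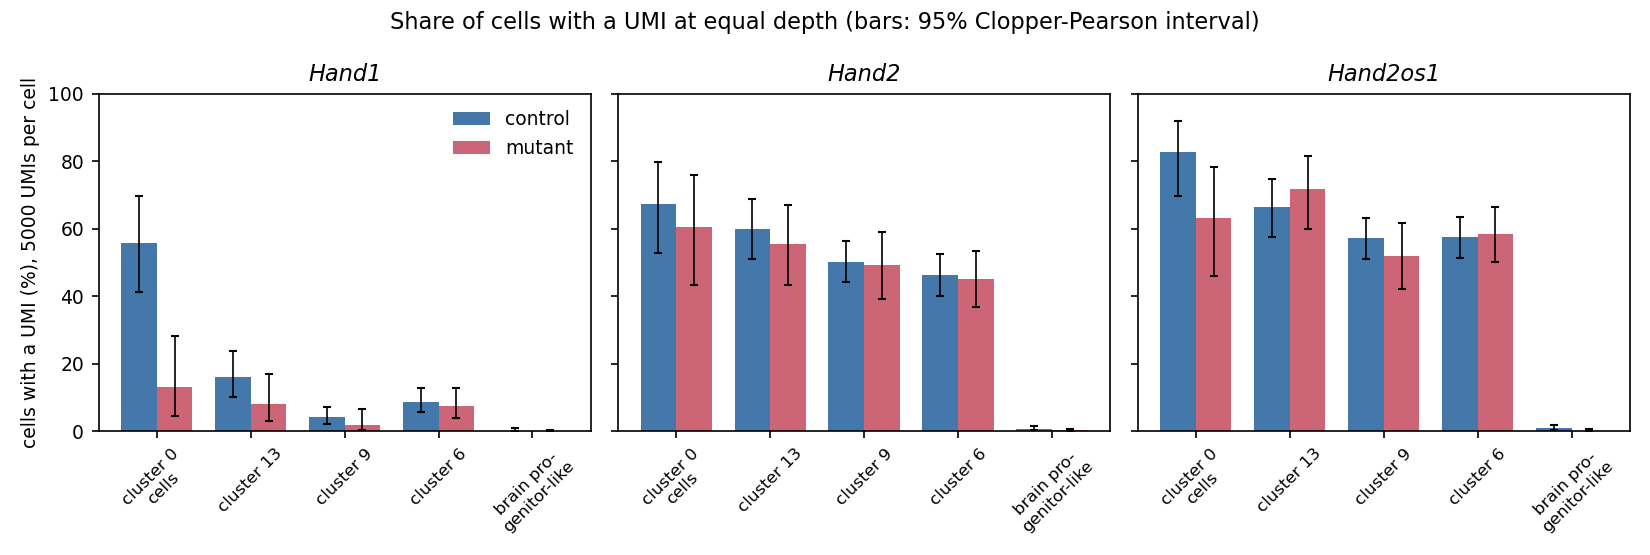
Share of cells with a UMI of each gene (percent, axis from 0 to 100) after thinning to 5000 UMIs per cell, in the 4 finer groups of mandibular-like cells and in brain progenitor-like cells, control in blue and mutant in red, with 95% Clopper-Pearson intervals as bars. The pair of Hand1 bars for the cluster 0 cells, 55.8% and 13.2%, is the one pair whose intervals stand apart among these groups.

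Hand1 UMIs came from few cells. In the mesenchyme a Hand1 UMI was found in 142 control and 50 mutant cells, and the 10 cells with the most held 26.2% of Hand1 UMIs in the control and 54.4% in the mutant. For Hand2 the 10 highest cells held 5.66% and 9.78%, and for Hand2os1 6.03% and 9.63%. The counting interval of Hand1 therefore understates the uncertainty more than those of the other members. Thinned mandibular-like cells with 3 or more Hand1 UMIs made up 3.80% of control and 1.05% of mutant cells, and those with exactly 1 made up 4.84% and 3.66%. For Hand2 the cells with 3 or more were 12.3% and 8.64% and those with 1 were 26.7% and 27.5%. For Hand2os1 the cells with 3 or more were 17.4% and 19.6%, against 27.0% and 19.4% with 1.

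**Figure D4:**
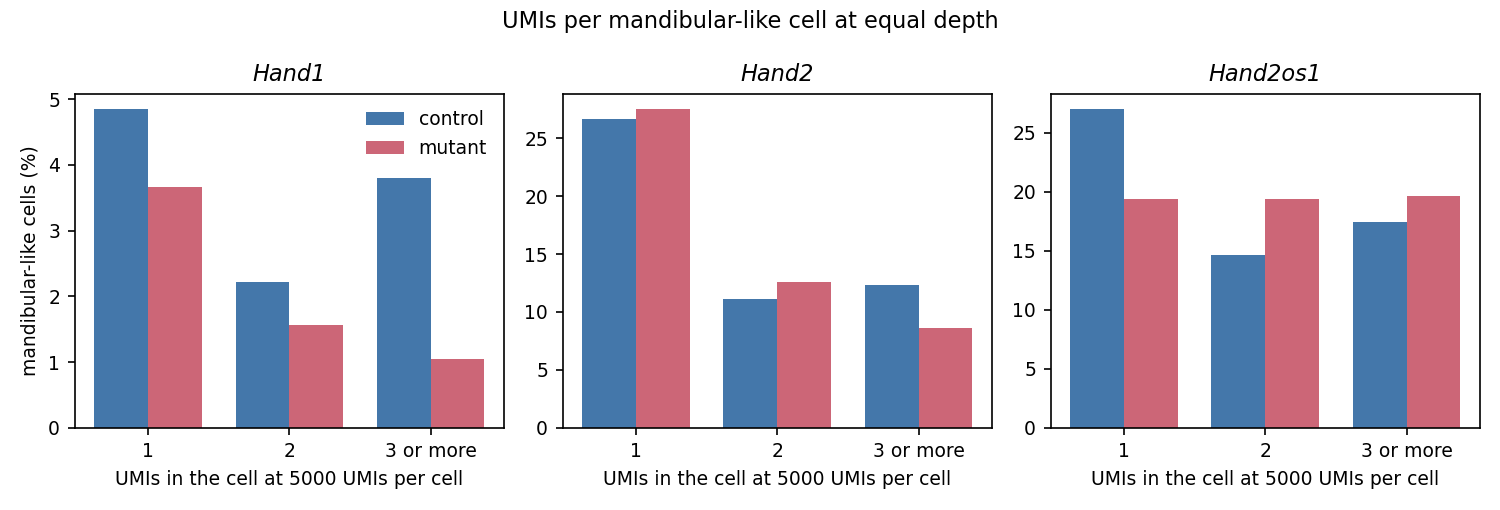
Percent of mandibular-like cells with 1, 2 or 3 or more UMIs of each gene at 5000 UMIs per cell, control in blue and mutant in red, with a separate axis from 0 for each gene. For Hand1 and Hand2 the mutant is lower mainly in cells with 3 or more UMIs (1.05% against 3.80%, and 8.64% against 12.3%), whereas for Hand2os1 cells with 1 UMI are fewer (19.4% against 27.0%).

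The members were found in the same cells. Of control mesenchyme cells with a Hand1 UMI, 88.0% (81.5 to 92.9) also had Hand2, against 17.1% of the cells without Hand1, and in the mutant 96.0% (86.3 to 99.5) did, against 12.4%. Of cells with Hand2, 83.3% in the control and 85.7% in the mutant had Hand2os1, against 3.71% and 2.76% of the cells without. In reverse, 16.8% of control and 12.2% of mutant Hand2 cells had Hand1. Within mandibular-like cells, which differ less in kind, 89.8% of control Hand1 cells had Hand2 against 74.2% of the others, and 97.6% against 73.5% in the mutant. Thinned to equal depth the control values were 71.1% and 47.6% and the mutant values 62.5% (40.6 to 81.2) and 47.8%, and the mutant intervals overlapped.

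At equal depth, the shares of mandibular-like cells with Hand1 and with Hand2os1 were lower among cells with a Dlx5 or Dlx6 UMI than among the others. Over all mesenchyme Hand2 and Hand2os1 went the other way. DLX5 and DLX6 are homeodomain factors upstream of Hand2 in the arch, and Hand1 was found at equal depth in 3.65% (1.76 to 6.61) of control cells with Dlx5 or Dlx6 and in 14.9% (11.9 to 18.4) of cells with neither. In the mutant it was in 0.926% (1 of 108 cells) and 8.39%. Hand2os1 was split the same way, at 49.3% (43.2 to 55.4) with and 64.5% (60.1 to 68.7) without in the control, and 46.3% (36.7 to 56.2) and 63.1% (57.1 to 68.9) in the mutant. Without thinning the mutant Hand2os1 shares were 80.3% and 79.7%, with no such split. For Hand2 the equal-depth shares were 43.4% (37.5 to 49.5) and 53.9% (49.3 to 58.4) in the control, with intervals that overlap slightly, and 50.9% and 47.8% in the mutant. Over all mesenchyme at equal depth, Hand2 was in 16.4% (14.1 to 18.8) with and 10.6% (9.42 to 11.8) without in the control, and 14.0% and 6.78% in the mutant. Hand2os1 was in 16.5% and 12.5% in the control and 13.5% and 9.07% in the mutant. Hand1 was in 1.17% and 2.87% in the control and 0.347% and 1.28% in the mutant.

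The profile of each member across the 16 finer clusters was compared with that of 11232 genes (Pearson correlation of log2 of CPM plus 1, the lower of the 2 libraries ranking). The points share the library and its depth, and clusters are not replicates, so these values are a description. Hand2 was most like Hand2os1 (0.98 in the control and 0.98 in the mutant), then 5033428I22Rik (0.97 and 0.96), Gm34030 (0.93 and 0.94), Pitx1 (0.84 and 0.86) and Krtcap3 (0.85 and 0.83). Hand2os1 was most like Hand2, 5033428I22Rik (0.98 and 0.97), Gm34030 (0.94 and 0.96), Klhdc10 and Hand1. Hand1 was most like 5033428I22Rik (0.90 and 0.85), Hand2os1 (0.90 and 0.83), Gm34030 (0.83 and 0.82), Syt6 (0.88 and 0.80) and Hand2 (0.85 and 0.78).

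Gm34030 and 5033428I22Rik are also the next annotated genes downstream of Hand2. Gm34030 lies on chromosome 8 from 57331692 to 57334585 on the minus strand, 7059 bases from Hand2, and 5033428I22Rik from 57332118 to 57354580 on the plus strand, 7485 bases from Hand2. They overlap each other on opposite strands, with the same uncertainty as the Hand2 pair. Further out in a window of 200000 bases on either side, chosen after the likeness was seen, Sap30, Hmgb2, 2500002B13Rik and Galnt7 had correlations with Hand2 between −0.11 and 0.52 in the control and −0.06 and 0.64 in the mutant. In mandibular-like cells Gm34030 had 472 and 228 UMIs (log2 ratio −0.22, −0.46 to 0.01) and 5033428I22Rik 729 and 473 UMIs (0.20, 0.03 to 0.37), the second being higher in the mutant as Hand2os1 was.

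Genes that act with the members were read from lists of known partners, regulators and neighbours in the arch. The list of endothelin and Dlx genes upstream of Hand2 had 13 of 14 members with at least 100 UMIs in the mesenchyme, and none was 1.5-fold apart, beside 0.858% of all genes lower and 2.36% higher. Its intervals lay below 0 for 7 genes and above 0 for 1, beside 14% and 21.5% of all genes, with a median log2 ratio of −0.11 against 0.02 over all 11657 genes. Dlx3 was at −0.55 (−0.73 to −0.37), Dlx6 at −0.50, Dlx6os1 at −0.46, Dlx5 at −0.33 and the receptor gene Ednra at −0.16 (−0.24 to −0.07). Edn1, which the epithelium makes, had 0 UMIs in control and 21 in mutant mesenchyme, and 0 in the mandibular-like cells of both.

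In mandibular-like cells 12 genes of this list passed the minimum, and 4 of them, Dlx3, Dlx6os1, Dlx2 and Dlx6, were 1.5-fold or more lower, at −1.35, −1.14, −0.74 and −0.66, beside 1.31% of all genes tested there. Dlx5 was at −0.47 (−0.64 to −0.31). Ednra was higher there, at 0.27 (0.07 to 0.48), from 44.4 to 53.7 CPM. The median of the list was −0.31 against −0.02 over all 8576 genes. The Hand1 ratio of −1.27 thus lay below those of the list apart from Dlx3, and the Hand2 ratio of −0.16 lay above each of the Dlx genes named.

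All 18 distal arch genes passed the minimum in the mesenchyme. Isl1, a LIM-homeodomain factor of the early mandible, was 1.5-fold or more lower, at 218 and 80 UMIs and a log2 ratio of −1.04 (−1.43 to −0.66), and the forkhead gene Foxf2 was higher, at 0.63 (0.51 to 0.76), beside 0.858% of all genes lower and 2.36% higher by that fold. Gsc was at −0.58 and Pitx1 at −0.56, just inside the fold used. In all, 14 of the intervals lay below 0 and 3 above, where over all genes 14% lay below and 21.5% above, and the median was −0.28, between those of Hand2 and Hand2os1. In mandibular-like cells 15 passed, of which Msx2 (−0.77) and Gata3 (−1.41) were 1.5-fold or more lower and Foxf2 (0.76) higher, beside 1.31% of all genes lower and 0.525% higher, and the median was −0.18, close to the ratio of Hand2.

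The bHLH partners and the Id factors, which bind E proteins and keep them from DNA, differed little between the libraries over all mesenchyme. Of 9 genes in the mesenchyme none was 1.5-fold apart, beside 0.858% of all genes lower and 2.36% higher, and the median was −0.02. Intervals lay below 0 for 4 of them and above 0 for 1, beside 14% and 21.5% of all genes. Twist2 was at 0.13, Tcf3 at −0.09, Id2 at −0.09 and Id4 at 0.08 (−0.12 to 0.29). In mandibular-like cells 8 passed the minimum and none was 1.5-fold apart, beside 1.31% of all genes lower and 0.525% higher. Intervals lay below 0 for 2 and above 0 for 1, beside 10.3% and 7.86% of all genes. Id2 was there at −0.25 (−0.33 to −0.17), Id1 at −0.10 and Twist1 at 0.10 (0.03 to 0.16). Of 8 proximal and maxillary genes none was 1.5-fold apart in the mesenchyme, beside 0.858% of all genes lower and 2.36% higher. The median was 0.11, with Meis2 at 0.29, Nr2f2 at −0.25 and Pou3f3 at 0.23. Their intervals lay below 0 for 1 gene and above 0 for 5, beside 14% and 21.5% of all genes. In mandibular-like cells Nr2f2 (−0.83) and Nr2f1 (−0.73) were lower and Lhx6 (0.92) higher by 1.5-fold or more, among 6 that passed, beside 1.31% of all genes lower and 0.525% higher.

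**Figure D5:**
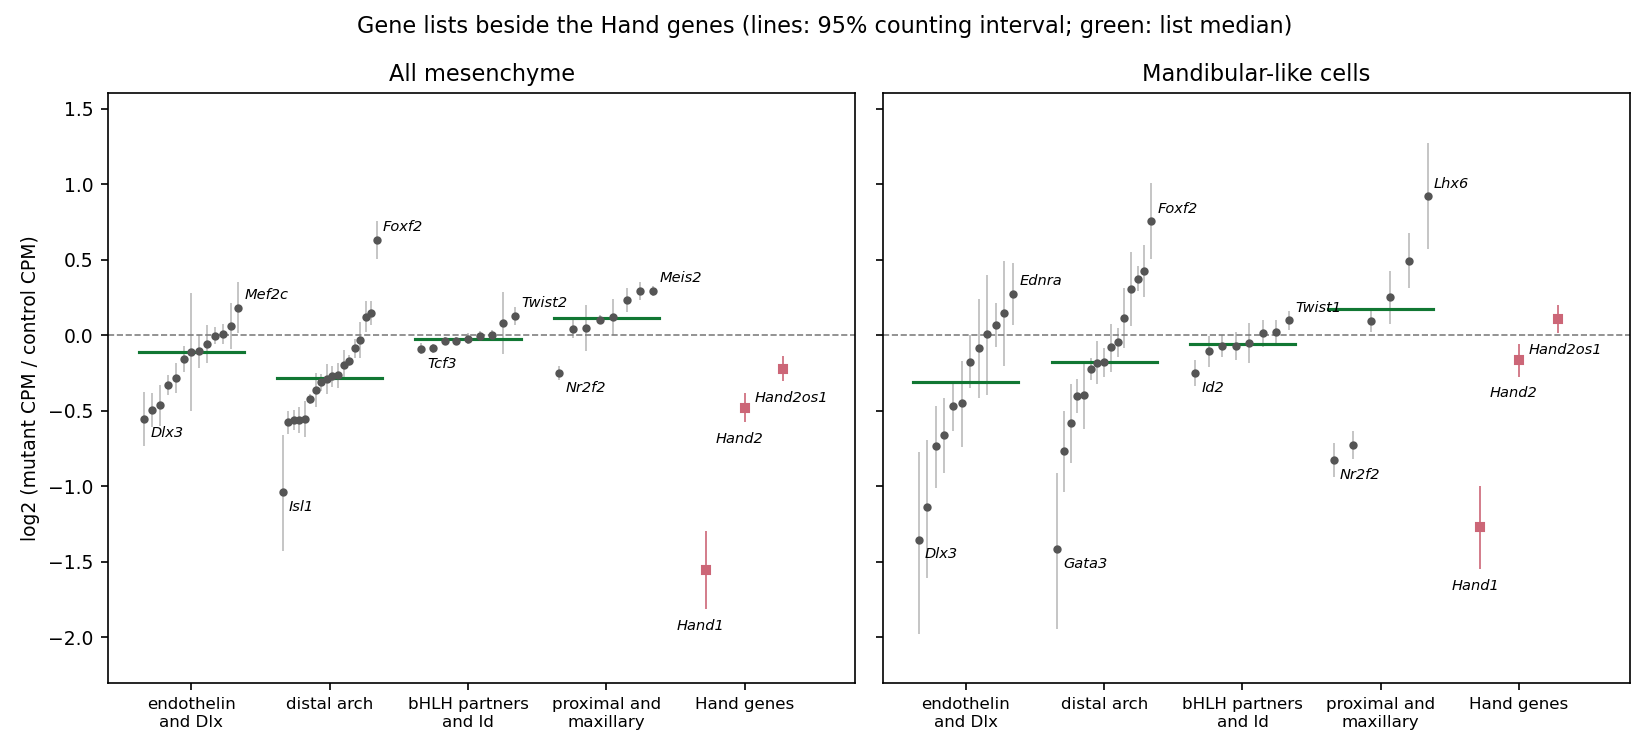
Log2 ratio of mutant over control for each gene of 4 lists with at least 100 UMIs (grey points, 95% counting intervals, green bar at the list median) beside the 3 members (red squares), in all mesenchyme and in mandibular-like cells. Hand1, at −1.55 and −1.27, lies below every list gene in the mesenchyme and below all but Dlx3 and Gata3 in mandibular-like cells, and list genes with extreme ratios are named.

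Outside the mesenchyme the members were low, though not all at background in the mutant. Glia-like cells had Hand2 at 3.36 CPM in the control and 4.28 CPM in the mutant, and Hand1 in 1 of 260 and 0 of 201 cells.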

How the data were processed

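The authors sequenced 10x 3′ libraries, aligned reads to mm10 with Cell Ranger (6.0.0 per the file headers) and deposited raw UMI counts per gene and cell. Per the labels, bcl2fastq and Seurat 4.3.0 were also used. From the deposited counts, cells with 200 to 7500 genes and at most 10% mitochondrial UMIs were kept, as in the study. Libraries were integrated and clustered in Seurat 5.3.0 (R 4.3.3; 2000 variable genes; 30 dimensions, 20 for mesenchyme; resolutions 0.05, 0.2 and 0.8) without the 3 genes, Tfap2a, Tfap2b, Xist, Tsix and Y-linked genes. Clusters were named from marker lists. Scrublet (scanpy 1.11.5) called 1.65% and 3.06% of cells doublets, which were kept. UMIs were summed per library and group, totalling 82313680 and 77251738, and intervals were computed with scipy 1.17.1. With 1 library per group no test was run. Ratios were checked on simulated Poisson counts, which checks the computation only and does not cover the spread between cells or embryos.

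The genes named are the 3 members, up to 4 of each list with the largest mesenchyme ratio, Ednra, Dlx5, Dlx6 and the 5 genes most like each member. Genes named beyond that rule (in mandibular-like and cluster 0 cells and around Hand2) were chosen after values were seen. Some genes that the rule names, and the results that need them, are not reported here. Members and lists were chosen with earlier results of these data known. Gene positions are from GENCODE on GRCm38 and the upstream sequence from RefSeq, with 32158 of 32285 gene identifiers matched. Alternatives were TMM scaling (edgeR 4.0.16), equal weight per cell, thinning, doublet removal, a stricter filter of 1000 genes, no integration, other resolutions and the members kept for clustering.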

Additional observations from a re-analysis of the deposited data

Results flagged for a closer look

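An unnamed group of 44 control and 89 mutant cells, the same cells at the coarse and the fine clustering (cluster 15), went against several other groups, though the difference was not tested. In it Hand2 was higher in the mutant, at 11 and 55 UMIs and a log2 ratio of 1.41. It was lower in the periocular-like (−1.46), second arch-like (−0.79) and mandibular-like groups (−0.16), and in clusters 0 (−0.45), 4 (−0.79) and 13 (−0.33). Hand2os1 had 6 and 86 UMIs in the unnamed group, a log2 ratio of 2.93, against −0.31 in cluster 0 and −0.96 in cluster 4. Cluster 12 went the same way on few UMIs, with 1 and 6 of Hand2, 3 and 10 of Hand2os1 and 0 and 6 of Hand1. The unnamed group was led by neural genes (Pou3f2, Otx2, Sox2, Hes5), 71.4% of its cells were called doublets, and its median depths were 26596.5 and 26235 UMIs per cell. The part of doublets in these values was not tested.

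Hand2os1 also went opposite ways between clusters with mandibular-like or maxillary-like cells. It was higher in the mutant in cluster 6 (0.17) and lower in cluster 0 (−0.31) and cluster 4 (−0.96), where mandibular-like cells held 103 of the 135 control and 37 of the 48 mutant UMIs, and again the difference was not tested.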

How the results depend on the processing

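Over all mesenchyme and the mandibular-like group, the ratios of the 3 genes had the same sign under every alternative that gave a value, though with thinning the mandibular-like intervals of Hand2 (−0.36 to 0.04) and Hand2os1 (−0.06 to 0.25) included 0. Hand1 ranged from −1.77 to −1.54 in the mesenchyme and from −1.29 to −1.18 in mandibular-like cells, Hand2 from −0.17 to −0.15 and Hand2os1 from 0.09 to 0.13 in mandibular-like cells. In the mesenchyme, giving each cell equal weight put Hand2 at −0.66 and Hand2os1 at −0.38, and thinning put them at −0.66 and −0.39. With cluster shares held fixed at resolution 0.8, an alternative chosen after seeing the data, Hand1 was at −1.50 and Hand2os1 turned to −0.0077. TMM scaling, which shifted mesenchyme ratios by −0.03, raised the list genes 1.5-fold or more lower from 1 to 5. Without integration no cluster met the mandibular markers, so no mandibular-like value was given. With the members among the clustering genes, 710 of the 767 control and 353 of the 385 mutant mandibular-like cells were recovered. No paired analysis was possible because each genotype had 1 library. Genotype, sex and pool cannot be told apart.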
